A study of Mus musculus with 8 samples.

Results

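The genes described here are 5 genes linked to endothelial tip cells, Esm1, Apln, Aplnr, Cxcr4 and Unc5b, taken by symbol from the gene lines that held a count for all 8 libraries. All 5 were on such lines, among 17326 genes, and all 5 passed the filter on low counts, which kept 16477 genes. Poly(A) RNA was sequenced from mouse kidney cells separated by fluorescence-activated sorting into glomerular endothelium and podocytes, the epithelial cells that wrap the glomerular capillaries. The donors were EMCN+/+ (wild type) or EMCN-/- (knockout) for endomucin, a sialomucin of the endothelial surface, which gave 4 groups of 2 libraries numbered 2 and 3: wild-type endothelium, knockout endothelium, wild-type podocytes and knockout podocytes. No other allele or treatment was given in the labels, and age, strain, the reach of the deletion, the sorting markers and pooling of animals were not given in the sources used here. The labels do not say that the 2 libraries of a group came from separate animals, so the p-values measure only the spread between these samples.

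In a sprouting vessel, vascular endothelial growth factor (VEGF) induces a leading tip cell, while Dll4-Notch signalling holds its neighbours in the stalk state. Esm1 encodes endocan, a secreted proteoglycan induced by VEGF in tip cells. Apln encodes apelin, a secreted peptide ligand, and Aplnr encodes its G-protein-coupled receptor, which also binds the peptide encoded by Apela. Cxcr4 is the receptor for the chemokine Cxcl12, and Unc5b is a repulsive guidance receptor for netrins and Robo4. In the glomerulus, podocytes are a source of VEGF-A for the endothelium across the basement membrane.

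By the GENCODE M21 annotation of GRCm38 (mm10), Esm1 lies on chromosome 13 from 113209659 to 113218098 (plus strand) and Aplnr on chromosome 2 from 85136225 to 85139923 (plus strand). Apln lies on chromosome X from 48025146 to 48034853, Cxcr4 on chromosome 1 from 128588199 to 128592293 and Unc5b on chromosome 10 from 60762593 to 60831581, all 3 on the minus strand. Esm1 overlaps Gzmk on the opposite strand and Unc5b overlaps the gene model Gm19972, in both cases with 0 exon bases in common. Promoter sequence from RefSeq (GRCm38.p6) matched 4 of the 5 genes. The 250 bases before the start of Esm1 and of Cxcr4 are shown because, among those 4, these genes had the largest and the smallest fold between wild-type endothelium and podocytes. Both run 5′ to 3′ along the gene's strand, from chr13:113209409-113209658 (plus) and chr1:128592300-128592549 (minus), and capitals mark the ETS core GGAA on either strand (TTCC when reversed), the motif that endothelial ETS factors recognise.
Esm1: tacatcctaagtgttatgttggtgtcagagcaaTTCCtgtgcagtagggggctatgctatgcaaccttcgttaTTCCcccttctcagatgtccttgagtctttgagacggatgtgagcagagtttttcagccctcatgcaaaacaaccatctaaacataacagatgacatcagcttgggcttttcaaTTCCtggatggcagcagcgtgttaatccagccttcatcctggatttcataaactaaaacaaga
Cxcr4: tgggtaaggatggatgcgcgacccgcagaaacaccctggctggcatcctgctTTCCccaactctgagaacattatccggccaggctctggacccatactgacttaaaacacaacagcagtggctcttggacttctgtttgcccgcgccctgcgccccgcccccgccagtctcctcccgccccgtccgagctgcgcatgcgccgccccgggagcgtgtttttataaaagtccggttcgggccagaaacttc
The Esm1 window held 3 ETS cores and the Cxcr4 window held 1. Windows with at least 1 core made up 93.4% of 32851 promoters of the same length, so the presence of the motif sets neither gene apart. The Esm1 window was 44% G and C and the Cxcr4 window 61.2%. The TATA box core TATAAA, searched on both strands, was found at 2 overlapping positions in the Cxcr4 window and at 0 in the Esm1 window, and 12.4% of all promoters held it. A forkhead core, TAAACA on either strand, was found 1 time in the Esm1 window and 0 times in the Cxcr4 window, against 12% of promoters with at least 1. These matches describe letters in the windows only.

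The libraries held between 10478956 and 17386042 counts on complete lines. Levels are given as CPM, counts scaled to a common library size after the TMM method had corrected each library's total. In wild-type podocytes Emcn was at 2.89% of its wild-type endothelial mean, and the knockout libraries had less Emcn in both endothelium (log2 fold change −3.43, SE 0.35, edgeR adjusted p 0.0205) and podocytes (−3.38, SE 0.36, edgeR adjusted p 0.0321), in the direction of the labels. Summed CPM of 14 endothelial markers was 9771 to 12031 in endothelial and 784 to 1180 in podocyte libraries. Summed CPM of 12 podocyte markers was 2729 to 4009 in endothelial and 10840 to 21816 in podocyte libraries. No marker of either list was at 0 in any library. Summed CPM of 12 tubule markers was 5141 to 23781 in endothelial and 10481 to 18892 in podocyte libraries. It was above the podocyte marker sum in each podocyte library except replicate 2 of wild type. Mural and mesangial markers summed to 326 to 680 CPM in endothelial and 514 to 1307 CPM in podocyte libraries. The part of tubule and mural RNA in the levels below was not tested. Replicate 3 of wild-type endothelium stood apart on the second principal component of log2 CPM, at 84.8 against −45.8 to 33.8 for the other 7 libraries, and had the highest mitochondrial share of counts (26.2%). Replicate 2 of knockout endothelium had the lowest (10.1%).

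All 5 genes had higher levels in both endothelial libraries than in both podocyte libraries of the same genotype, by 26.9-fold for Esm1 and by 1.92-fold for Cxcr4 in wild type. In wild type 2 of the 5, Esm1 and Aplnr, were higher at an edgeR adjusted p under 0.05, against 4.26% of all genes in that direction (8.99% in either direction). Groups that did not overlap were found for 5 of 5, against 21.2% of all genes higher in endothelium. In knockout 3 of the 5, Esm1, Aplnr and Unc5b, passed, against 4.28% of all genes in that direction (10.4% in either direction), and 5 of 5 did not overlap, against 27.3% of all genes.

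Esm1, the secreted endocan core protein, stood at 46.7 and 35.1 CPM in wild-type endothelium (replicates 2 and 3) and at 1.30 and 1.74 CPM in wild-type podocytes. In knockout it stood at 228 and 71.8 CPM in endothelium and at 1.74 and 2.73 CPM in podocytes. The lowest endothelial library thus lay far above the highest podocyte library. The log2 fold change of endothelium over podocytes was 4.75 in wild type (SE 0.55, 95% interval 3.52 to 5.98, edgeR adjusted p 0.00033), a 26.9-fold difference. In knockout it was 6.07 (SE 0.57, 95% interval 4.81 to 7.33, edgeR adjusted p 0.000119), or 67.2-fold. Without replicate 2 of knockout endothelium this log2 value was 5.01 (edgeR adjusted p 9.05e-05), and without replicate 3 it was 6.67 (edgeR adjusted p 3.41e-05). The podocyte values rested on 20 to 37 counts per library and the endothelial values on 485 to 3227.

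Apln, the apelin ligand, was less separated between the cell types than Esm1. It stood at 8.36 and 5.72 CPM in wild-type endothelium and at 2.59 and 1.38 CPM in wild-type podocytes, a log2 fold change of 1.82 (SE 0.54, edgeR adjusted p 0.0662). In knockout it stood at 12.1 and 5.94 CPM in endothelium and at 2.49 and 3.24 CPM in podocytes, a log2 fold change of 1.65 (SE 0.53, edgeR adjusted p 0.0787). Neither comparison passed the threshold, although the libraries of the cell types did not overlap. Without 1 library the log2 value ran from 1.44 to 2.44 in wild type and from 1.05 to 2.07 in knockout. DESeq2 gave adjusted p-values of 0.0102 in wild type and 0.0193 in knockout for the same gene.

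Aplnr, the apelin receptor, was detected with few counts in podocytes, 14 to 22 per library, against 84 to 389 in endothelium. The levels were 9.50 and 8.11 CPM in wild-type endothelium and 1.30 and 1.16 CPM in wild-type podocytes, a 7.11-fold difference (log2 2.83, SE 0.64, edgeR adjusted p 0.0182). Without any 1 library the log2 value was between 2.71 and 3.01, although the call needed all 4 wild-type libraries. The call was also lost with limma voom (adjusted p 0.111), at a log2 value of 2.80. In knockout the levels were 27.4 and 7.23 CPM in endothelium and 0.870 and 1.62 CPM in podocytes, a 13.9-fold difference (log2 3.80, SE 0.66, edgeR adjusted p 0.00399). That size depended on the knockout endothelial libraries, with a log2 value of 2.54 without replicate 2 (edgeR adjusted p 0.0438) and of 4.46 without replicate 3 (edgeR adjusted p 0.000801). Receptor and ligand thus differed in how far podocytes fell below endothelium: podocyte Aplnr was at 14% of the endothelial mean in wild type and podocyte Apln at 28.2%, a difference that was not tested.

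Unc5b, the netrin receptor, had the highest podocyte level of the 5 per kilobase of exon. It stood at 27.4 and 36.2 CPM in wild-type endothelium and at 16.5 and 15.3 CPM in wild-type podocytes, a log2 fold change of 0.998 (SE 0.30, edgeR adjusted p 0.0751). In knockout it stood at 49.1 and 34.8 CPM in endothelium and at 16.8 and 11.1 CPM in podocytes, a 3.001-fold difference that passed (log2 1.59, SE 0.31, edgeR adjusted p 0.00786). Without replicate 2 of knockout endothelium the value was 1.31 and no longer passed (edgeR adjusted p 0.0713). In wild type the gene did pass in a fit of only the 4 wild-type libraries (edgeR adjusted p 0.0253), so the threshold falls between settings for this gene.

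Cxcr4, the Cxcl12 receptor, had the smallest fitted difference between the cell types in the set, on 21 to 62 counts per library. It stood at 3.72 and 2.10 CPM in wild-type endothelium against 1.49 and 1.52 CPM in wild-type podocytes. The log2 fold change was 0.94 (SE 0.57, 95% interval −0.32 to 2.20, edgeR adjusted p 0.432), close to that of Unc5b (0.998). Without replicate 2 of wild-type endothelium the values were 0.48 for Cxcr4 and 1.18 for Unc5b. Without its replicate 3 they were 1.30 and 0.78, so the order in wild type turned with 1 library. In knockout Cxcr4 stood at 4.37 and 3.10 CPM in endothelium against 2.24 and 1.84 CPM in podocytes. The log2 fold change there was 0.87 (SE 0.56, 95% interval −0.37 to 2.11, edgeR adjusted p 0.403). Leukocytes also carry Cxcr4, so the immune markers are given beside it. Of 20 such markers 13 were on complete lines, with a summed level of 83.7 to 114 CPM in endothelial and 106 to 164 CPM in podocyte libraries, and none was at 0. Csf1r, the receptor for macrophage colony-stimulating factor, made up 67.9 to 107 CPM of the podocyte sums, and was called on the podocyte side in wild type (−3.37, SE 0.32, edgeR adjusted p 0.000125). Without it, a choice made after its values were seen, the other 12 summed to 71.4 to 106 CPM in endothelial and 33.7 to 56.9 CPM in podocyte libraries, with Lyz2 and Cd14 the most abundant in endothelium. Of 12 immune markers tested, 8 were above 0 for endothelium over podocytes in wild type (median log2 fold change 0.43) and 11 in knockout (median 0.73), against 49.3% of all genes in each. Ptprc, the pan-leukocyte marker, was not on a complete line, and the part of immune RNA in the Cxcr4 level was not tested.

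**Figure D1:**
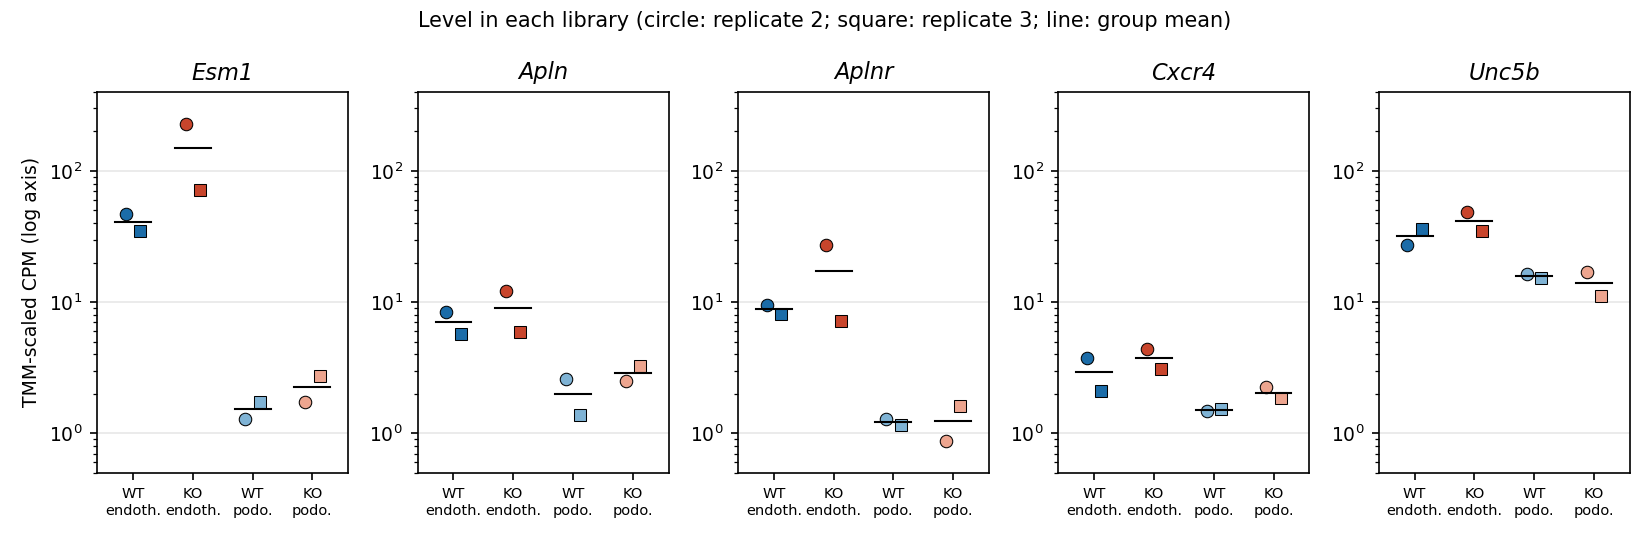
TMM-scaled CPM (log axis) of each gene in each library, with circles for replicate 2, squares for replicate 3 and a line at the mean of each group of 2. Esm1 runs from 1.30 CPM in a wild-type podocyte library to 228 CPM in knockout endothelium replicate 2, while Cxcr4 stays between 1.49 and 4.37 CPM.

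Per kilobase of exon, which allows genes to be compared, wild-type endothelium held 19.5 ± 3.92 CPM per kb of Esm1 (SD, n = 2) and 5.08 ± 0.99 CPM per kb of Unc5b (SD, n = 2). Aplnr at 2.38 ± 0.27 CPM per kb, Apln at 2.23 ± 0.59 and Cxcr4 at 1.61 ± 0.64 (SD, n = 2 each) followed. Aplnr and Apln differed by less than the spread between libraries, and Apln and Cxcr4 by about as much as that spread. The order was the same in knockout endothelium, from 71.4 ± 52.5 CPM per kb for Esm1 to 2.07 ± 0.50 for Cxcr4 (SD, n = 2). Podocytes had another order in wild type: Unc5b came first at 2.54 ± 0.14 CPM per kb (SD, n = 2), Cxcr4 next at 0.834 ± 0.013 (SD, n = 2), then Esm1 at 0.724 ± 0.150 (SD, n = 2), and Aplnr last at 0.332 ± 0.026 (SD, n = 2). Esm1 thus led the set in endothelium and Unc5b led it in podocytes.

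Each gene's podocyte level is set here beside that of endothelial markers. The 14 markers had a median podocyte level of 7.43% of their endothelial mean in wild type, from 2.96% for Egfl7 to 294% for Cldn5, a tight-junction gene that was higher in the podocyte libraries despite its place on the list. In knockout the median was 5.48%, from 1.99% for Robo4 to 158% for Cldn5. Esm1 lay below the median in both genotypes, at 3.71% and 1.49%. Aplnr lay above it at 14% and 7.19%. Apln (28.2% and 31.8%), Unc5b (50.1% and 33.3%) and Cxcr4 (51.8% and 54.6%) lay above every marker but Cldn5. The part of endothelial RNA in the podocyte counts of the 5 genes was not tested.

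**Figure D2:**
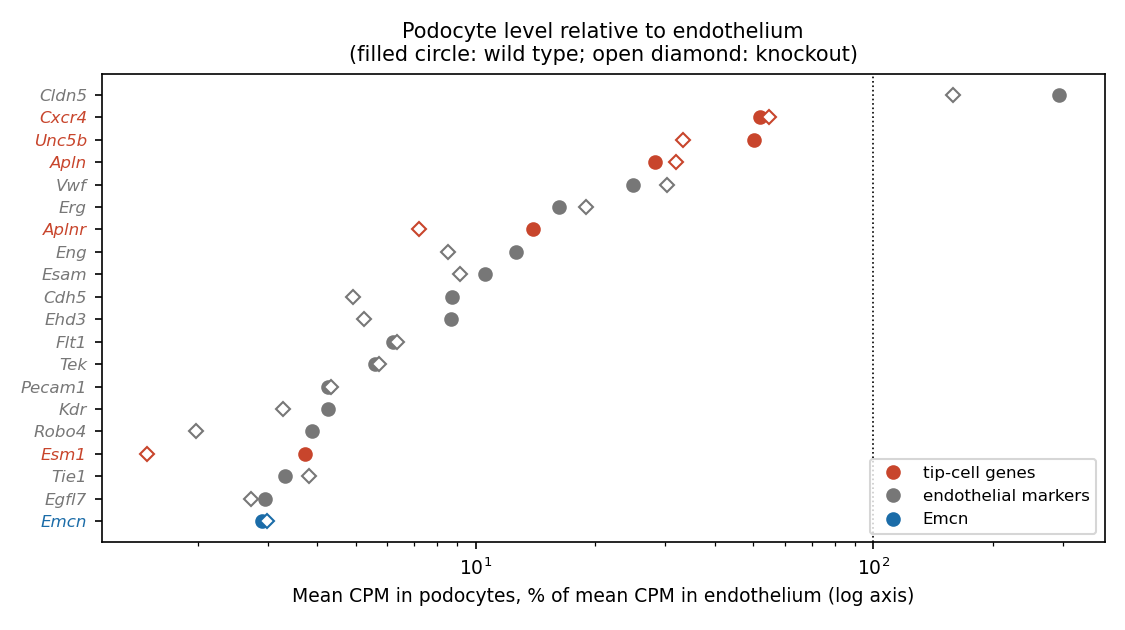
Mean CPM in podocytes as a percentage of mean CPM in endothelium (log axis) for the 5 tip-cell genes, 14 endothelial markers and Emcn, with filled circles for wild type and open diamonds for knockout. Esm1 sits with the most endothelial markers, and Cxcr4, Unc5b and Apln sit to the right of all markers except Cldn5.

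The comparison of knockout with wild-type endothelium asked how loss of endomucin goes with the level of these genes. Of the 5 genes 0 passed an edgeR adjusted p under 0.05, against 0.00607% of all genes (Emcn alone), and 0 passed with DESeq2 or limma voom. For Cxcr4 DESeq2 gave no adjusted p in this comparison. At an unadjusted p under 0.05 there was 1 of 5, Esm1, against 5.49% of all genes. All 5 fitted changes were above 0, with a median log2 fold change of 0.40 against 0.0050 over all genes, of which 50.3% were above 0. Endothelial markers lay on the same side, with 12 of 14 above 0 and a median of 0.23, and podocyte markers on the other, with 10 of 12 below 0 and a median of −0.38. Immune markers (9 of 12 above 0, median 0.31) and mural and mesangial markers (5 of 8 above 0, median 0.47) also had medians above 0. Their part in the values of the 5 genes was not tested. In bulk libraries fewer cells of a type and less RNA per cell cannot be told apart.

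Esm1 had the largest fitted change of the set. Its 2 knockout endothelial libraries, at 228 and 71.8 CPM, lay above the 2 wild-type ones, at 46.7 and 35.1 CPM, and it was the 1 gene of the 5 whose groups did not overlap, against 24.8% of all genes in that direction. The group means were 149.67 ± 110 and 40.9 ± 8.22 CPM (SD, n = 2 each). The log2 fold change was 1.87 (SE 0.45, 95% interval 0.86 to 2.88), or 3.66-fold, with an edgeR adjusted p of 0.716, and the adjusted p over 8 other settings ran from 0.0517 with DESeq2 to 0.907. The knockout libraries differed 3.17-fold between themselves, and the size rests on the higher one: without replicate 2 of knockout endothelium the log2 fold change was 0.81 (edgeR adjusted p 0.988), and without replicate 3 it was 2.48 (edgeR adjusted p 0.136). Without replicate 3 of wild-type endothelium, the library that stood apart, it was 1.68 (edgeR adjusted p 1). Per 1000 CPM of endothelial markers, Esm1 was at 4.11 and 3.59 CPM in the wild-type libraries and at 18.9 and 6.74 CPM in the knockout ones, so the knockout libraries were also higher relative to those markers.

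Aplnr had the next largest fitted change, and it came from 1 library. The 27.4 CPM of knockout replicate 2 stood above the other 3 endothelial libraries, and the 7.23 CPM of knockout replicate 3 was the lowest of the 4. The log2 fold change was 0.98 (SE 0.57, 95% interval −0.29 to 2.25, edgeR adjusted p 0.716). Without replicate 2 of knockout endothelium it turned to −0.28 (edgeR adjusted p 0.988). Without replicate 3 of wild-type endothelium it was 0.87 (edgeR adjusted p 1).

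The other 3 genes had smaller fitted values, with overlapping groups. Apln was 0.36 higher on the log2 scale (SE 0.51, 95% interval −0.77 to 1.48, edgeR adjusted p 0.828), and without replicate 2 of knockout endothelium the value was −0.25. Cxcr4 differed by 0.36 (SE 0.55, 95% interval −0.86 to 1.58, edgeR adjusted p 0.841), and Unc5b by 0.40 (SE 0.30, 95% interval −0.27 to 1.06, edgeR adjusted p 0.727). Without 1 library Cxcr4 ran from 0.0065 (without replicate 3 of wild-type endothelium) to 0.83 (without its replicate 2). Unc5b ran from 0.13 without replicate 2 of knockout endothelium to 0.63 without its replicate 3. The intervals leave room for changes of more than 2-fold upwards in each of these genes, so these libraries do not show that the levels are alike.

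Replicate 2 of knockout endothelium was the highest of the 8 libraries for 5 of 5 genes. The same held for 17.6% of all genes tested, for 47.9% of the 702 genes called higher in wild-type endothelium than in wild-type podocytes, and for 9 of 14 endothelial markers. In that group, replicate 2 exceeded replicate 3 by 3.80-fold for Aplnr, 3.17-fold for Esm1 and 2.03-fold for Apln. Ratios at least as large were found for 0.385%, 0.626% and 4.45% of genes within 2-fold of the respective level. For Unc5b and Cxcr4 the ratio was 1.41-fold, reached by 11.7% and 26.3% of such genes. Within same-numbered libraries, knockout Esm1 was 4.87 times the wild-type level in replicate 2 and 2.05 times in replicate 3, whereas Aplnr was 2.89 and 0.891 times.

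Summed levels of tubule markers and of dissociation-response genes also varied across these 4 libraries. Summed CPM of 12 tubule markers was 10437 and 23781 in the wild-type endothelial libraries (replicates 2 and 3) against 5141 and 10925 in the knockout ones, lowest in the library where the 5 genes were highest. By gene 8 of the 12 were below 0 (median −0.88) and 4 above, among them Aqp1, at 126 and 221 CPM in wild type against 518 and 311 CPM in knockout. Summed CPM of 19 dissociation-response genes was 45104 and 52518 in the former against 28383 and 36620 in the latter. All 19 had a fitted change below 0 (median −0.68), 8 of them at an unadjusted p under 0.05, and 0 passed an edgeR adjusted p under 0.05. Over all genes 50.3% were above 0, the median was 0.0050 and 5.49% had an unadjusted p under 0.05. The part of either in the values of the 5 genes was not tested.

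In podocytes, 0 of 5 genes passed between knockout and wild type with edgeR, DESeq2 or limma voom, against 0.00607% of all genes with edgeR (Emcn alone). At an unadjusted p under 0.05 there were also 0 of 5, against 4.43% of all genes. The fitted log2 changes were 0.55 for Esm1 (SE 0.57), 0.52 for Apln (SE 0.54), 0.44 for Cxcr4 (SE 0.57), 0.0072 for Aplnr (SE 0.67) and −0.19 for Unc5b (SE 0.30), with edgeR adjusted p-values of 0.978 to 1. Without 1 library Esm1 ran from 0.20 (without replicate 3 of knockout podocytes) to 0.85 (without their replicate 2), and Apln from 0.14 (without replicate 3 of wild-type podocytes) to 1.07 (without their replicate 2). Cxcr4 was the 1 gene whose podocyte groups did not overlap (1.49 and 1.52 against 2.24 and 1.84 CPM), against 15.1% of all genes in that direction. The sign for Aplnr depended on the scaling, with −0.015 under DESeq2 size factors. The 4 genes other than Unc5b had 14 to 44 counts per library, and each of their 95% intervals reached past a 2-fold increase.

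The difference between the endothelial and the podocyte effect of genotype was tested directly. It was largest for Esm1, at 1.32 on the log2 scale (SE 0.73, 95% interval −0.29 to 2.94, edgeR adjusted p 1), and 0.26 without replicate 2 of knockout endothelium. The other 4 genes lay between −0.16 for Apln and 0.97 for Aplnr, all with an edgeR adjusted p of 1. With edgeR, DESeq2 and limma voom 0 of 16477 genes passed, and 2.6% had an unadjusted edgeR p under 0.05. A genotype effect on these genes particular to endothelium was therefore not shown.

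**Figure D3:**
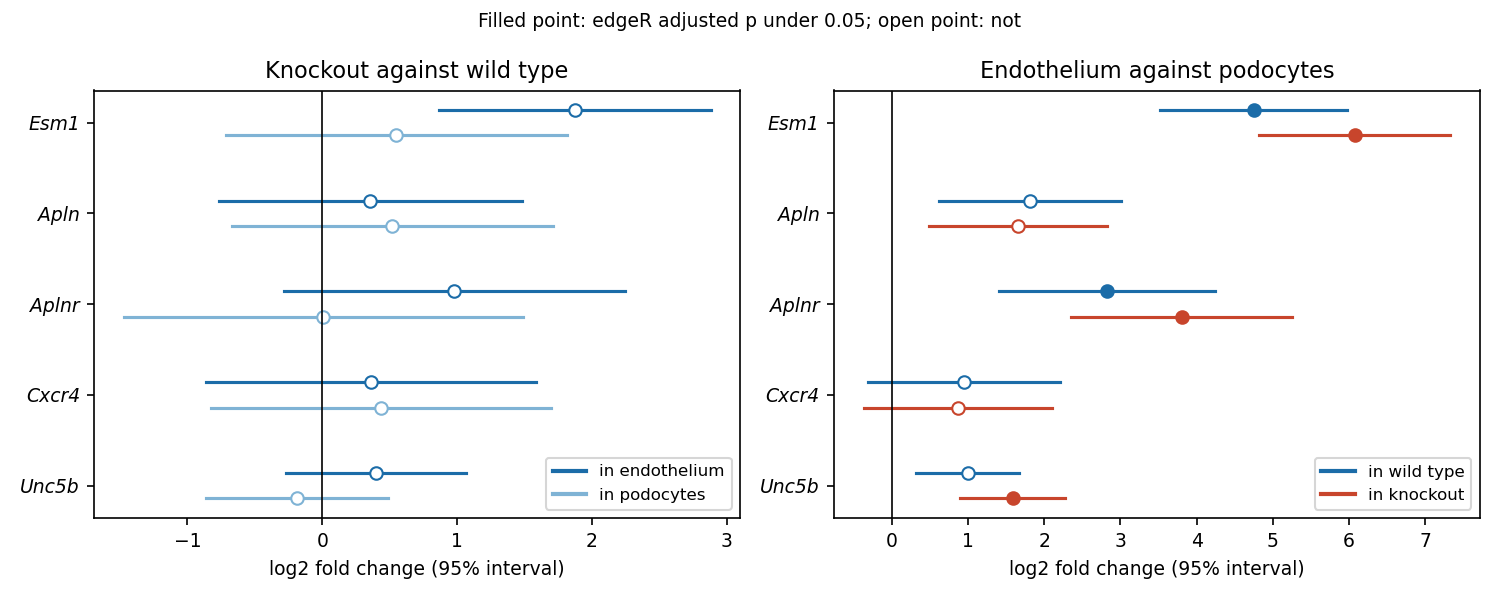
Log2 fold changes with 95% intervals from the edgeR fit, for knockout against wild type (left) and endothelium against podocytes (right), with filled points for an edgeR adjusted p under 0.05 and open points otherwise. On the left no point is filled, and the Esm1 interval in endothelium (0.86 to 2.88) is the 1 that does not cross 0; on the right Esm1 and Aplnr are filled in both genotypes and Unc5b in knockout.

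Of 19 ligands and partners of the 5 genes, 3 were called higher in wild-type endothelium (4.26% of all genes) and 5 higher in wild-type podocytes (4.73% of all genes) by edgeR, and in knockout 3 and 6 were (6.09% of all genes on the podocyte side). Cxcl12, the ligand of Cxcr4, stood at 89.8 and 59.0 CPM in wild-type endothelium and at 316 and 270 CPM in wild-type podocytes, a log2 fold change of −1.98 (SE 0.29, edgeR adjusted p 0.00145). Ackr3, the scavenging receptor for Cxcl12, was also higher in podocytes, with a log2 fold change of −3.63 (SE 0.33, edgeR adjusted p 9.27e-05). Apela, the other ligand of Aplnr, had a log2 fold change of −0.93 in wild type (SE 0.52, edgeR adjusted p 0.383) and of −2.85 in knockout (SE 0.55, edgeR adjusted p 0.00771). Its podocyte level was 82.0 and 98.7 CPM in wild type and 306 and 123 CPM in knockout (replicates 2 and 3). For endothelium over podocytes, tubule markers lay below 0 for 8 of 12 in wild type (median −0.22) and 12 of 12 in knockout (median −1.09). The medians over all genes were −0.010 and −0.014. The part of tubule RNA in the Apela values was not tested. The netrins Ntn1 (0.42, edgeR adjusted p 0.722) and Ntn4 (−0.089, edgeR adjusted p 0.973) did not pass, whereas Robo4, the endothelial partner of Unc5b, was 4.69 higher on the log2 scale (SE 0.40, edgeR adjusted p 7.59e-05), and the related netrin receptor Unc5a 2.41 higher (SE 0.59, edgeR adjusted p 0.0281). Unc5c, another netrin receptor, named here after its values were seen, lay on the podocyte side (−2.13, SE 0.30, edgeR adjusted p 0.00112).

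Among 10 VEGF ligands and receptors 5 were called higher in wild-type endothelium and 1, Vegfa, higher in wild-type podocytes, beside 4.26% and 4.73% of all genes. Vegfa stood at 167 and 141 CPM in wild-type endothelium and at 1410 and 1012 CPM in wild-type podocytes (log2 fold change −2.97, SE 0.27, edgeR adjusted p 0.000103). Its receptors Kdr (4.56, SE 0.33, edgeR adjusted p 4.32e-05) and Flt1 (4.01, SE 0.39, edgeR adjusted p 0.000127) and the co-receptor Nrp1 (1.90, SE 0.29, edgeR adjusted p 0.00176) were higher in endothelium. Of 31 other tip-cell genes, 15 were higher in endothelium and 6 in podocytes, beside the same 4.26% and 4.73%. Dll4, the Notch ligand of tip cells, was 3.51 higher on the log2 scale (SE 0.46, edgeR adjusted p 0.000713), and the transcription factor Sox7 was 4.79 higher (SE 0.36, edgeR adjusted p 4.85e-05), while the activin subunit gene Inhbb was on the podocyte side (−3.79, SE 0.48, edgeR adjusted p 0.000587). Angpt2 did not pass in wild type (−1.39, SE 0.54, edgeR adjusted p 0.173) and was lower in endothelium in knockout (−2.18, SE 0.55, edgeR adjusted p 0.03). Its calls moved with the setting, since DESeq2 called it in both genotypes and scaling by library size only in neither, and its knockout podocyte libraries stood at 606 and 154 CPM. Of 19 stalk and Notch genes 10 were higher in endothelium and 1, Cldn5, in podocytes. Of 11 rapid VEGF-response genes 3 were higher in endothelium and 1, F3, in podocytes. Both lists again stand beside 4.26% and 4.73% of all genes. Aplnr had also been set on the stalk and Notch list, and it was counted only among the 5 genes described here.

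Between knockout and wild type 0 genes of any of these 5 lists passed in endothelium, in podocytes or in the difference, with edgeR, DESeq2 or limma voom. In endothelium an unadjusted edgeR p under 0.05 was found for 1 of 19 ligands and partners, 1 of 10 VEGF genes and 2 of 31 other tip-cell genes. It was found there for 0 of 19 stalk genes and 3 of 11 rapid-response genes, beside 5.49% of all genes. The podocyte counts, in the same order, were 4 of 19, 2 of 10, 2 of 31, 2 of 19 and 0 of 11. Over all genes the podocyte share was 4.43%. In endothelium the list medians were 0.090 for ligands and partners, 0.11 for VEGF genes, 0.10 for other tip-cell genes and 0.20 for stalk genes on the log2 scale, against 0.0050 over all genes. Above 0 were 20 of 31 other tip-cell genes, 13 of 19 stalk and Notch genes, 7 of 10 VEGF genes and 10 of 19 ligands and partners, against 50.3% of all genes. The rapid VEGF-response genes went the other way, with 10 of 11 below 0 and a median of −0.45. F3, tissue factor, was 50.4 and 102 CPM in wild-type against 26.4 and 40.2 CPM in knockout endothelium, fitted at −1.19 on the log2 scale (SE 0.36, edgeR adjusted p 0.716). The dissociation-response sums given earlier lay on the same side, and their part in this was not tested.

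Dll4 and Angpt2, the latter encoding a ligand of the Tek receptor, were also highest in replicate 2 of knockout among the endothelial libraries. Dll4 stood at 87.8 and 66.7 CPM in the wild-type libraries against 159 and 67.8 CPM in the knockout ones (log2 fold change 0.56, SE 0.41, edgeR adjusted p 0.727). Angpt2 stood at 66.5 and 46.7 CPM against 112 and 56.0 CPM in the same order (0.57, SE 0.53, edgeR adjusted p 0.756). Adm, the peptide adrenomedullin, had the smallest p of that list and the opposite sign, at 88.4 and 72.5 CPM against 54.7 and 51.1 CPM (−0.60, SE 0.22, edgeR adjusted p 0.716). Replicate 2 of knockout endothelium was the highest of all 8 libraries for 12 of 31 other tip-cell genes. The same held for 10 of 19 stalk and Notch genes and 1 of 11 rapid VEGF-response genes. It also held for 4 of 10 VEGF genes and 5 of 19 ligands and partners. Beside these stand 17.6% of all genes tested and 47.9% of the 702 genes called higher in wild-type endothelium than in wild-type podocytes.

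In podocytes the smallest p-values of the lists belonged to Adm, at 352 and 275 CPM in wild type against 159 and 157 CPM in knockout (log2 fold change −0.99, SE 0.22, edgeR adjusted p 0.978), and to Jag1, a Notch ligand, at 21.5 and 27.9 against 62.5 and 34.5 CPM (0.97, SE 0.33, edgeR adjusted p 0.978). Vegfa stood at 1410 and 1012 CPM in wild-type and at 658 and 787 CPM in knockout podocytes (−0.74, SE 0.26, edgeR adjusted p 0.978). None of these 3 passed the threshold. Podocyte markers lay below 0 in the same comparison for 11 of 12 genes. Their median log2 fold change was −0.55, against 0.023 over all genes. Above 0 were 9 of 12 tubule (median 0.48), 7 of 12 immune (0.39) and 5 of 8 mural and mesangial markers (0.37). Endothelial markers had 6 of 14 above 0 (median −0.087). The part of these marked cell types in the podocyte values was not tested.

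**Figure D4:**
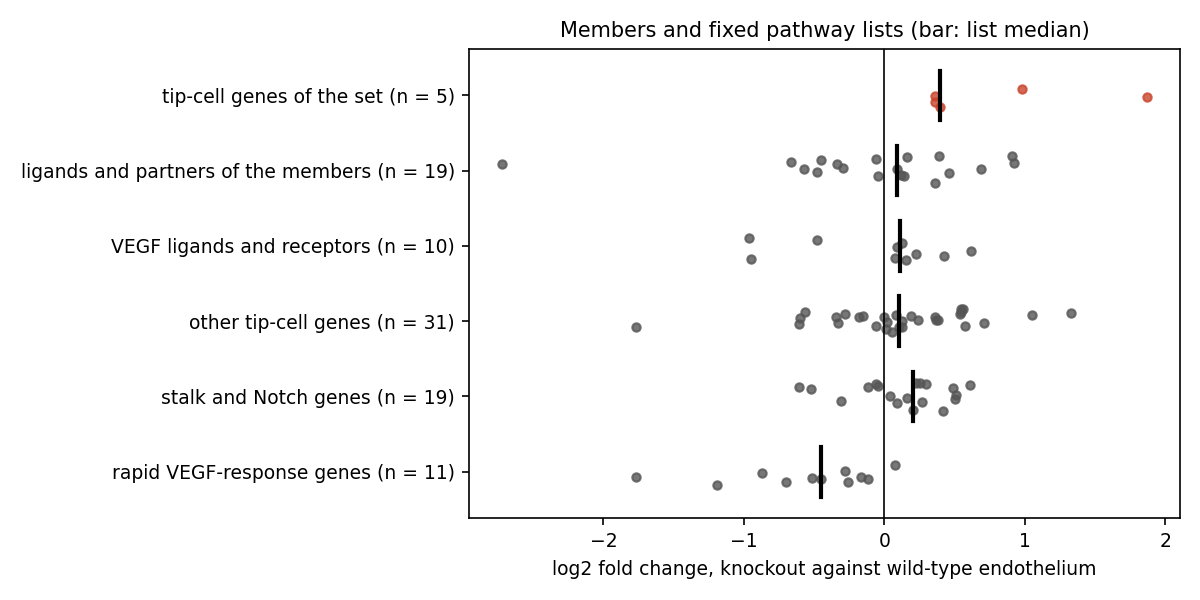
Log2 fold change of knockout against wild-type endothelium for each gene (points) of the 5 tip-cell genes and the 5 pathway lists, with a bar at each median. The 5 genes have a median of 0.40 and no point below 0, and the rapid VEGF-response genes have a median of −0.45 with 1 point above 0.

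The genes with the most similar pattern over the 8 libraries were ranked by the root mean square difference in log2 CPM after each gene was centred on its own mean, among genes with a mean of at least 5 CPM. Esm1 had no close neighbour: Ushbp1 (0.56), Cd38 (0.60) and Shank3 (0.64) came nearest of 10079 genes. Aplnr was nearest to Syt15 (0.36), Cd93 (0.39) and Jak3 (0.40), and Apln to Dhx58 (0.17), Stk10 (0.24) and Hey2 (0.26). Cxcr4 was nearest to Zfp532 (0.15), Runx1t1 (0.17) and Dnmt1 (0.18), and Unc5b to Sh3d21 (0.16), Prdx4 (0.18) and Ifi47 (0.20). Within the set the nearest pair was Cxcr4 with Unc5b (0.44) and the farthest Esm1 with Cxcr4 (2.27). Many more genes were searched outside the set than within it, so nearer neighbours outside do not show whether the 5 genes go together. The 8 libraries share 4 groups, and the measure is a description with no test.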

How the data were processed

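The deposited values are read counts by Entrez gene in a single table. Per the submitters' processing notes, mm10 and DESeq2 were used, with no role given, and the aligner, counter and use of strand were not given in the sources used here. Of 22533 gene lines, 17326 held all 8 counts. The other 5207 were short because of commas in gene descriptions and were not analysed. In 3 deposited columns these lines leave empty cells, so these columns were recorded as another unit; their complete lines hold whole counts. Groups and replicate numbers came from the labels.

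Counts were fitted in R 4.3.3 with edgeR 4.0.16 (filterByExpr, TMM, quasi-likelihood F test, 1 mean per group over 8 libraries, Benjamini-Hochberg adjustment over 16477 genes, threshold 0.05). The SE is the log2 fold change over the root of F. Exon lengths came from GENCODE M21. Alternatives included DESeq2 1.42.0 and limma 3.58.1 voom, and the steps were tested on simulated data. The 5 genes and the lists were chosen with earlier results of these data known. Named list genes were ligands, receptors and tip-cell genes set by name, the smallest p per list and genotype comparison, and the largest called changes between cell types; some genes meeting this rule are not reported.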

Additional observations from a re-analysis of the deposited data

How the results depend on the processing

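The Esm1 calls between cell types held in all 9 alternatives and without each library in turn, and its endothelial genotype change stayed above 0 and uncalled in all 8 alternatives. Past the threshold for genotype in endothelium (1 gene) were 0 genes with scaling by library size only (1002 at an unadjusted p under 0.05), 4 with DESeq2 and 0 with a mean of at least 5 CPM (407 unadjusted). In podocytes (1 gene) there were 0 with library size only (588 unadjusted), 8 with DESeq2, and 0 with limma voom (608), with a mean of at least 5 CPM (368) and with only the 4 libraries compared (545). Of the 5 genes in wild-type endothelium against podocytes (2 called), 4 were called with DESeq2 (5.59% of all genes higher), 1 with limma voom (4.27%; Aplnr was lost) and 4 with the replicate block (4.87%).

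Signs turned for Aplnr in podocytes (−0.015 with DESeq2 size factors, −0.014 with DESeq2, −0.078 with limma voom), and, in the difference of genotype effects, for Apln (0.048) and Cxcr4 (0.12) with library size only. That scaling moved the median of all genes by more than 0.1, to 0.33 in endothelium, 0.13 in podocytes, 0.18 in the difference and 0.27 between cell types in knockout.

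Without 1 library the genotype counts ran from 0 to 1 in both cell types, and the cell type counts from 812 (without wild-type podocyte replicate 2) to 1678 genes in wild type (1 to 3 of the 5) and from 946 (without knockout endothelium replicate 2) to 1795 in knockout (2 to 3 of the 5). The genotype change in endothelium ran from −0.28 to 1.64 for Aplnr and from −0.25 to 0.78 for Apln. In podocytes it ran from −0.50 to 0.40 for Aplnr and from −0.53 to 0.080 for Unc5b. The difference of effects ran from −0.77 to 0.26 for Apln, −0.29 to 1.63 for Aplnr and −0.43 to 0.39 for Cxcr4. Where 1 library remained in a group, it was assumed to vary like the others. The cause of these shifts was not tested.

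Replicate numbers are not shown to pair the libraries: with 2 numbers, deviations of same-numbered libraries correlated at 0.19 between genotypes in endothelium, 0.16 in podocytes, −0.13 between wild-type cell types and 0.11 between knockout ones. With the replicate block 1 gene passed in endothelium, 1 in podocytes, 0 in the difference, 1831 in wild-type and 2241 in knockout cell types; Apln (edgeR adjusted p 0.0461) and Unc5b (0.0494) passed in wild type. A block with crossed podocyte numbers, chosen after seeing the data, gave 1357 and 1578 genes. DESeq2 gave no adjusted p for Cxcr4 between knockout and wild-type endothelium. Low counts limit Cxcr4 everywhere and Esm1, Apln and Aplnr in podocytes.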
